A study of Mus musculus with 3 samples.

Results

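The LIF receptor to Stat3 signalling chain was read in mouse embryonic stem (ES) cells of the R1 line, strain 129. It was taken as 9 genes: Lifr, Il6st, Jak1, Jak2, Stat3, Socs3, Ptpn11, Pim1 and Pim3. They were found through every probe set whose single annotated symbol was one of these names. That gave 10 probe sets of the 26730 on the Affymetrix Mouse Gene 1.0 ST array and 9 of 19057 named genes. Socs3 had 2 probe sets and each other gene had 1. Probe sets annotated with several symbols that listed one of the 9 numbered 0. Total RNA of 3 biological repeats was hybridised, and the repeats form 1 group. The labels give no treatment and no second genotype or time. They do not say whether LIF or feeder cells were in the culture, nor how the repeats were kept apart, so the tests measure the spread between these samples only.

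Leukaemia inhibitory factor (LIF) is the cytokine that keeps mouse ES cells undifferentiated in culture. It brings together the receptor chains Lifr and gp130, the product of Il6st, and the Janus kinases bound to them phosphorylate tyrosines on the receptor tails. Stat3 docks on these tyrosines, is phosphorylated in turn, pairs with another Stat3 molecule and enters the nucleus to activate target genes. Socs3 is such a target and shuts the receptor down again, while Ptpn11 (Shp2) is the phosphatase and adaptor that leads from gp130 to the Ras-ERK branch. Pim1 and Pim3 are serine/threonine kinases whose genes are known Stat3 targets in ES cells. Docking, phosphorylation and pairing act on protein, and an array measures RNA, so these steps were not measured. Only the RNA of the genes was read, those of the Stat3 targets among them.

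Values are log2 probe set intensity, and an SD is over the 3 repeats. Median intensity over all probe sets was between 46.7 and 47.8 on the arrays. The background cutoff of an array was set so that 95% of 1186 olfactory and vomeronasal receptor genes lay under it, at log2 4.60 to 4.72. Pluripotency markers lay above it on all 3 arrays in 9 of 9 measured genes, with Pou5f1 at 11.77 ± 0.12 (SD, n = 3). Fibroblast markers did so in 12 of 14, leukocyte markers in 4 of 9, and primitive endoderm markers in 3 of 7. Of 17871 genes outside the receptor families, 71.4% did so. Among the leukocyte markers, the pan-leukocyte gene Ptprc lay below background at 3.70 ± 0.030, while Laptm5 (8.98 ± 0.23) and Cd68 (7.33 ± 0.11; SD, n = 3 for each) lay above it on all 3 arrays. In bulk RNA, fewer cells of a type and less RNA per cell cannot be told apart.

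Stat dimers bind DNA at the palindrome TTCNNNGAA, which reads the same on both strands, so promoter windows of the genes were searched for it first. RefSeq windows of 300 bases, from 250 before to 50 after a transcription start, were found for 9 of 9 genes (11 windows, build GRCm38.p6). The motif was in 1 of the 9 genes, Socs3, against 9.55% of 27025 genes with a window (8.30% of all windows), so the share was close to that of all genes. A match describes the letters of the window and is not shown to be a bound site. The sequence upstream of the Socs3 start is shown because Socs3 is the textbook feedback target of Stat3. It lies at chr11:117969367-117969616 on the minus strand and is printed 5′ to 3′ with the motif in capitals, from 154 to 146 bases before the start.
Socs3: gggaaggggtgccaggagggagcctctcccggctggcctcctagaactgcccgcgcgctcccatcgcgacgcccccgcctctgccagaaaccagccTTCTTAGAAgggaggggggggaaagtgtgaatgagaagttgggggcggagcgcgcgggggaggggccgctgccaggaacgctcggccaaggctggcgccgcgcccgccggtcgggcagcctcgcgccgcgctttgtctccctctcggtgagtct
Of 20 further genes listed as known LIF or Stat3 targets, 16 had a window. The motif was in 4 of the 16 (25%), against 9.55% of 27025 genes with a window, and the difference was not tested. The 4 are Icam1 (chr9:21015888-21015916, plus strand), Bcl6 (chr16:23981353-23981381, minus strand), Zfp36 (chr7:28379227-28379255, minus strand) and Sgk1 (chr10:21881951-21881979, plus strand). They are shown with 10 bases on each side for comparison with Socs3, and for Bcl6, which held several, the motif nearest a transcription start is given.
Icam1: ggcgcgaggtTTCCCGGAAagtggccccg
Bcl6: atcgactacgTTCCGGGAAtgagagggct
Zfp36: acagcctgacTTCTGCGAAccgacagtcg
Sgk1: gaaaaaccaaTTCAAAGAAccctcccaag
On the strands printed, the central bases of the motif differed between all 5 genes. Read on the opposite strand, however, the Icam1 motif is the same as the Bcl6 motif shown. The windows of the other 8 genes of the chain held no match.

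All 9 genes of the chain lay above background on all 3 arrays, where 71.4% of 17871 genes outside the receptor families did. At a cutoff that 99% of the receptor genes lay under, all 9 remained above, against 54.8% of genes. A higher cutoff came from 125 genes of other families not typical of ES cells (keratin-associated proteins, defensins, late cornified envelope proteins, caseins and lens crystallins), at log2 6.32 to 6.54. It was exceeded on all 3 arrays by 8 of the 9 genes, against 39.0% of genes. The exception was Jak2, which lay below it on every array. Socs3 exceeded it as the mean of its probe sets, while its lower probe set also lay below it on every array.

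**Figure D1:**
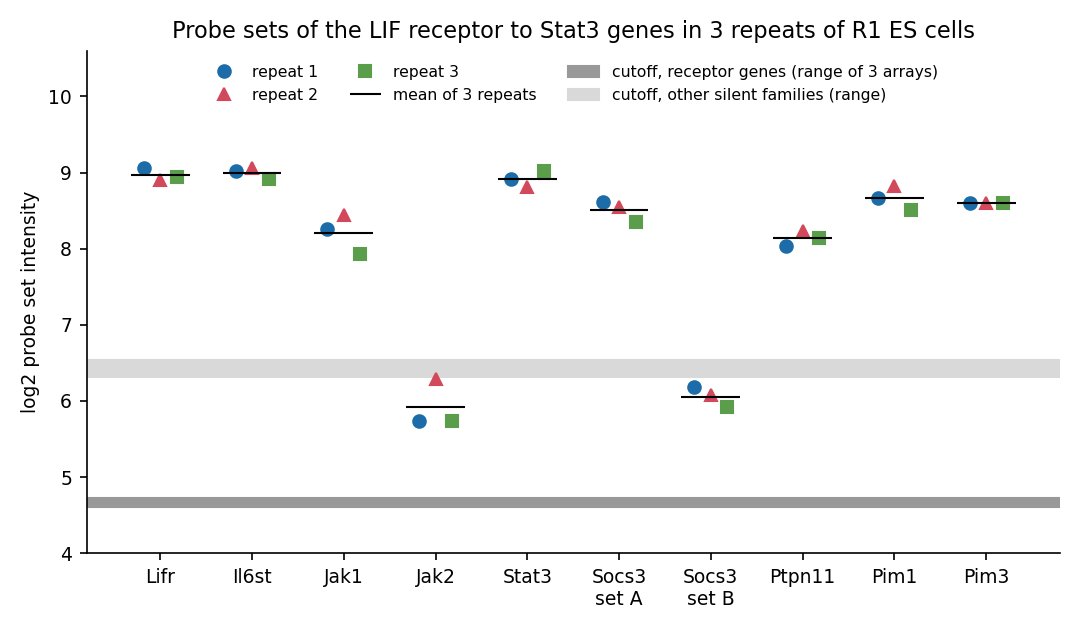
Log2 probe set intensity (vertical axis) of the 10 probe sets of the 9 genes; each symbol is 1 repeat and each line the mean of 3. Dark and light bands give the range over arrays of the cutoffs set by olfactory and vomeronasal receptor genes (4.60 to 4.72) and by other silent families (6.32 to 6.54). Jak2 and the lower Socs3 probe set lie between the bands and the other probe sets above both.

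The receptor chains were even between repeats. Lifr, the chain that binds LIF with gp130, read an intensity of 532, 479 and 491 in repeats 1, 2 and 3, or 8.97 ± 0.080 (SD, n = 3) on the log2 scale. Il6st, the signalling chain shared by the whole cytokine family, read 518, 531 and 481, or 8.99 ± 0.075 (SD, n = 3). The highest value of Lifr was in repeat 1 and that of Il6st in repeat 2, and the highest was 1.11-fold over the lowest for both. Neither varied beyond the trend of variance with level in limma, with Benjamini-Hochberg adjustment over 13591 genes (adjusted p = 0.998 for both). The test called 0 of the 9 genes of the chain, against 22 of 13591 genes (0.162%). At an unadjusted p under 0.05 it held 2 of the 9, both Janus kinases, against 5.75% of genes.

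The Janus kinases were the least even genes of the chain. Jak1, the kinase on which gp130 signalling mainly depends, read an intensity of 306, 347 and 244 in repeats 1, 2 and 3. That is 8.21 ± 0.26 (SD, n = 3) on the log2 scale, 1.42-fold between the highest and the lowest array. Its repeats were spread out, with repeat 2 high and repeat 3 low. The SD of Jak1 was 2.43 times the trend at its level, above that of 96.8% of the 1000 genes nearest in level, with an unadjusted p of 0.0204 and an adjusted p of 0.671 in limma's variance test. Without repeat 3 its SD was 0.13 and the unadjusted p 0.233, without repeat 2 they were 0.23 and 0.0317, and without repeat 1 they were 0.36 and 0.0167.

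Jak2, another Janus kinase that binds gp130, showed another pattern. It read an intensity of 53.2, 78.3 and 53.2 in repeats 1, 2 and 3, or 5.92 ± 0.32 (SD, n = 3) on the log2 scale. Repeats 1 and 3 were nearly equal and repeat 2 stood alone, 0.56 log2 units (1.47-fold) above their mean. The SD of Jak2 was 2.35 times the trend and above that of 96.7% of the 1000 genes nearest in level. It did not pass either, with an unadjusted p of 0.0245 and an adjusted p of 0.725 in the same test. With repeat 2 left out the SD was 0.00053 and the unadjusted p 0.997 in that test. Without repeat 1 they were 0.39 and 0.0273, and without repeat 3 they were 0.39 and 0.0242. The spread of Jak2 thus rested on repeat 2, which was singled out from these same values, so this only describes them. The adjusted p of Jak2 in that test lay between 0.578 and 1.0 over 9 alternative settings. Its shift of repeat 2 was recomputed under fewer settings, and was 0.56 under quantile normalization and 0.57 under median centring.

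The 3 genes nearest to Jak2 in their centred values over the 3 arrays were Ano1, Flnc and Loxl3, by Euclidean distance. The distances were 0.013, 0.014 and 0.017 log2 units. Ano1 encodes a chloride channel, Flnc the actin crosslinker filamin C and Loxl3 a lysyl oxidase. Over 3 arrays this describes the shape of the values and nothing more.

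**Figure D2:**
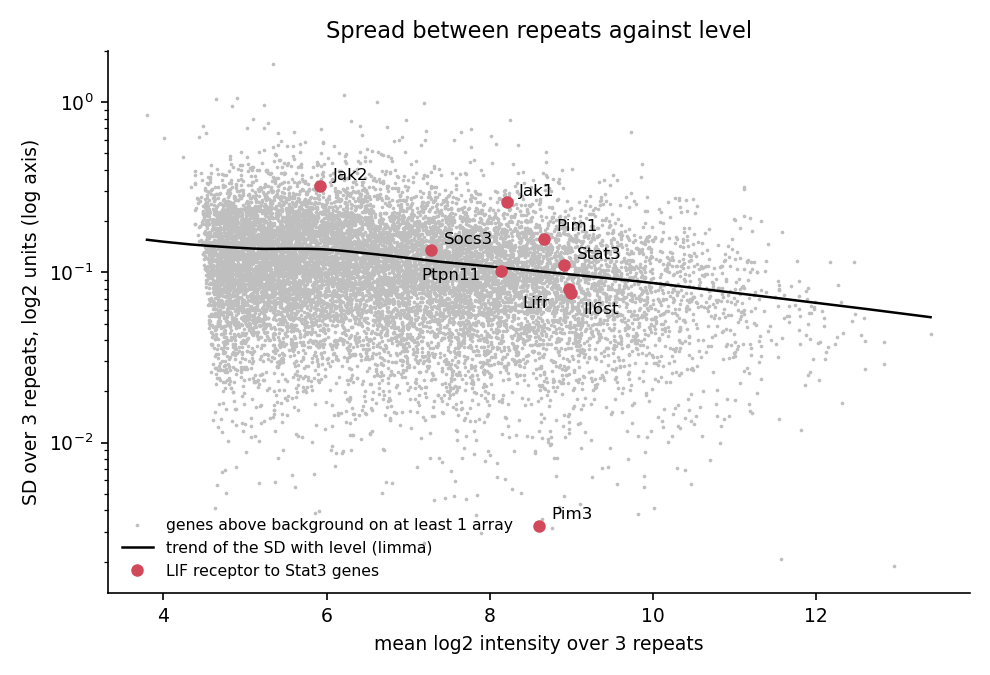
SD over 3 repeats in log2 units (vertical, log axis) against mean log2 intensity (horizontal); grey points are the 13591 genes above background on at least 1 array, the line is limma's trend and red points are the 9 genes. Jak1 and Jak2 lie at 2.43 and 2.35 times the trend, and Pim3 lies far under it.

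Stat3, the transcription factor at the end of the chain, read an intensity of 484, 447 and 521 in repeats 1, 2 and 3. On the log2 scale this was 8.92 ± 0.11 (SD, n = 3), with the lowest value in repeat 2, where both kinases were highest. The highest array was 1.17-fold over the lowest, and the spread lay near the trend (SD 1.13 times the trend, adjusted p = 0.998 in limma's variance test). Repeat 2 was lowest for Lifr and Stat3 alone among the 9 genes, against 34.7% of 12810 genes above background on all 3 arrays.

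Socs3 and Ptpn11, which act on the same docking tyrosine of gp130, were also close to the trend. The 2 probe sets of Socs3, the feedback inhibitor, were read separately. The first read an intensity of 392, 374 and 326 in repeats 1, 2 and 3, or 8.50 ± 0.14 (SD, n = 3). The second, tied to the gene by 1 accession, read 72.5, 67.4 and 60.5, or 6.06 ± 0.13 (SD, n = 3), under the higher cutoff on every array. Both were highest in repeat 1 and lowest in repeat 3, so they gave the same order, while the level of Socs3 depends on which is used. Their mean was 7.28 ± 0.13 (SD, n = 3), with an adjusted p of 0.998 in limma's variance test. Ptpn11 read an intensity of 262, 301 and 283, or 8.14 ± 0.10 (SD, n = 3), with repeat 1 lowest (adjusted p = 0.998).

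The target kinases differed in how even they were. Pim1 read an intensity of 407, 453 and 364 in repeats 1, 2 and 3, or 8.67 ± 0.16 (SD, n = 3), 1.24-fold from lowest to highest. Its SD was 1.56 times the trend (adjusted p = 0.974 in limma's variance test). Repeat 2 was high and repeat 3 low, the order also seen in Jak1 and Il6st, so 3 of the 9 genes had it, against 19.1% of genes above background. Pim3 read 387, 389 and 387, or 8.60 ± 0.0033 (SD, n = 3), and 0.1% of the 1000 genes nearest in level had a smaller SD. That evenness moved with the scaling: the SD of Pim3 was 0.029 after quantile normalization and 0.021 after median centring.

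The position of each repeat was then compared over the chain. Repeat 2 was the highest array for 6 of the 9 genes (Il6st, Jak1, Jak2, Ptpn11, Pim1 and Pim3), against 36.9% of genes above background. For Pim3 the difference was 0.0056 log2 units and turned to -0.042 under quantile normalization. The median shift of repeat 2 over the 9 genes was 0.090 log2 units, beside 0.0065 over all genes above background. It was 0.042 under quantile normalization and 0.11 under median centring. Jak1 (0.35) and Jak2 (0.56) were the 2 genes of the chain outside the middle 90% of all genes for repeat 2, which ran from -0.29 to 0.31. Repeat 3 was the lowest array for 4 of the 9 (Il6st, Jak1, Socs3 and Pim1), against 31.9% of genes, and Jak1 lay farthest out there, at -0.42.

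**Figure D3:**
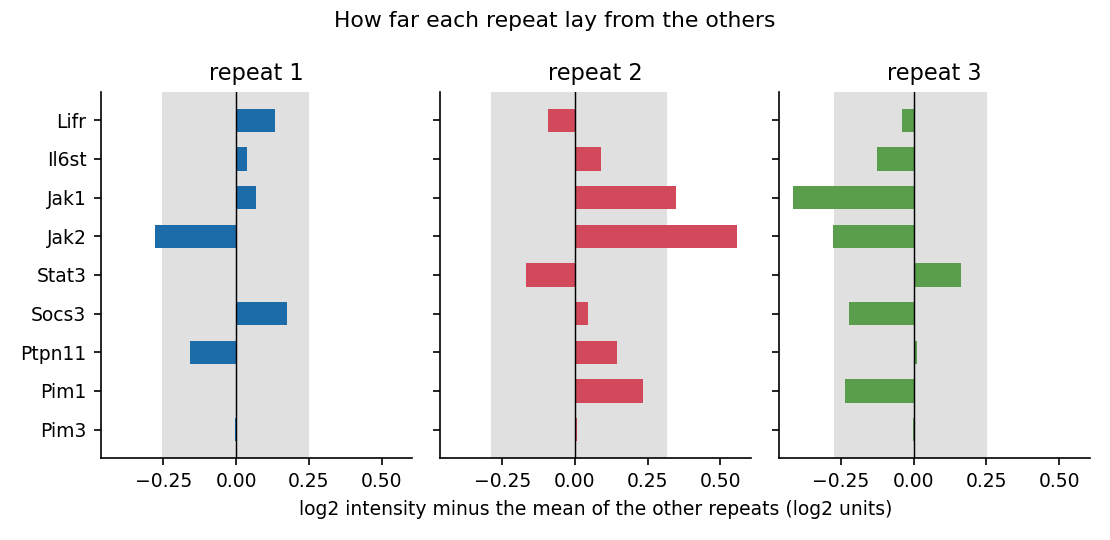
Log2 intensity of each repeat minus the mean of the other repeats (horizontal, log2 units) for the 9 genes, 1 panel per repeat; grey bands hold the middle 90% of the 12810 genes above background on all arrays. Jak2 reaches 0.56 in repeat 2 and Jak1 -0.42 in repeat 3, while Pim3 has almost no bar.

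Values of the marker lists stand here beside those of the kinases. Over all genes above background, 36.9% were highest in repeat 2 and 34.7% lowest there. Of 14 measured fibroblast markers 10 were highest in repeat 2 and 2 lowest there, with a median shift of 0.35 log2 units. Their summed intensity was 3956, 5078 and 4015 in repeats 1, 2 and 3, of which Fn1 alone gave 2165, 2327 and 2181. The variance test called 2 of the 13 tested, Acta2 and Lox, against 22 of 13591 genes (0.162%). The list was chosen with earlier results of these data known, so these counts are a description only. Acta2, smooth muscle actin, read 7.57, 9.11 and 8.07 in the 3 repeats (adjusted p = 0.0082 in limma's variance test). Lox, the collagen crosslinking enzyme, read 6.46, 7.88 and 6.58 (adjusted p = 0.0193). The collagens Col1a1 and Col1a2 had repeat 2 shifts of 0.61 and 0.50 and did not pass (adjusted p = 0.248 and 0.536 in limma's variance test). Shifts were negative for S100a4 (-0.44), Lum (-0.23) and Pdgfra (-0.042); Lum was below background on every array and S100a4 on 1. Pluripotency markers were highest in repeat 2 in 6 of 9 genes as well, against 36.9% of genes above background. Their median shift was 0.095 and their summed intensity 19589, 20908 and 19427. Leukocyte markers had a median shift of -0.056 in repeat 2, with a summed intensity of 831, 814 and 974, of which Laptm5 alone gave 475, 447 and 607. Primitive endoderm markers had a median shift of -0.031, with a summed intensity of 222, 242 and 238. The part of any of these cells in the values of Jak1 and Jak2 was not tested.

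The rest of the pathway was read from 8 lists of 84 genes, of which 72 were measured. Above background on all 3 arrays were 63 of the 72, against 71.4% of genes, and 40 exceeded the higher cutoff, against 39.0%. The variance test in limma called 0 of the 68 that were tested, with an unadjusted p under 0.05 in 9, against 5.75% of genes. The median SD over the 72 was 0.11 log2 units, as over the 9 genes of the chain, beside 0.10 over all genes above background.

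Ligands of the gp130 family gave little signal. Of 9 measured ligands, 4 lay above background on all 3 arrays, against 71.4% of genes, and 0 exceeded the higher cutoff, against 39.0%. Lif itself read 5.86, 5.90 and 5.70 in repeats 1, 2 and 3, below the higher cutoff on every array. The others above the lower cutoff were Clcf1 (5.59 ± 0.024), Il27 (6.13 ± 0.049) and Il11 (5.58 ± 0.36; SD, n = 3 for each). Il11, a cytokine that also signals through gp130, read 5.95, 5.55 and 5.24 and did not pass the test (adjusted p = 0.596 in limma's variance test). Il6 read 4.62 ± 0.23 (SD, n = 3) and passed the lower cutoff on 2 arrays.

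Over all genes, 71.4% lay above the lower cutoff and 39.0% above the higher one on all 3 arrays. Of 5 other measured receptor chains that pair with gp130 or bind its cytokines, 4 lay above the lower and 0 above the higher. Osmr, the oncostatin M receptor chain, read 5.49, 6.40 and 5.30 in repeats 1, 2 and 3. Repeat 2 was 1.001 log2 units (2.001-fold) above the mean of the others, the widest gap in the pathway lists, with an unadjusted p of 0.000493 and an adjusted p of 0.149 in limma's variance test. Osmr thus had the repeat 2 pattern of Jak2 at a larger size, and neither passed. Cntfr, the ciliary neurotrophic factor receptor, was instead low in repeat 1, at 5.36 against 6.09 and 6.07 (adjusted p = 0.432). Il6ra, which binds interleukin 6, read 5.95 ± 0.17 (SD, n = 3), and Il31ra lay below background at 3.57 ± 0.035 (SD, n = 3).

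**Figure D4:**
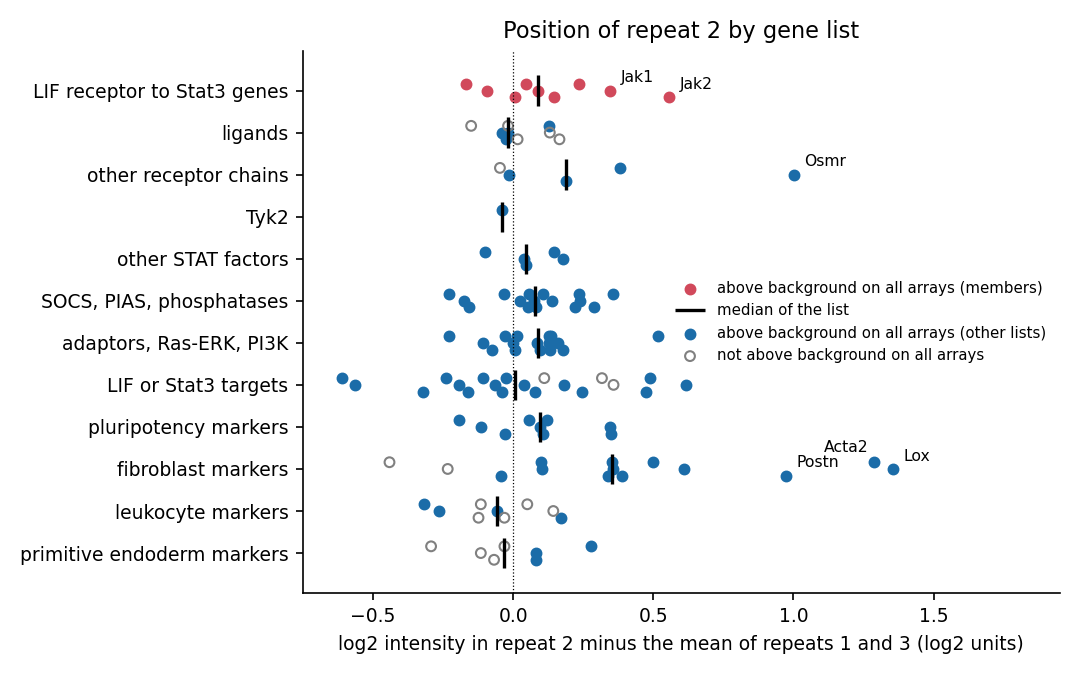
Log2 intensity of repeat 2 minus the mean of repeats 1 and 3 (horizontal, log2 units) for each measured gene of the chain (red), of the other pathway lists and of the marker lists (blue); open circles were not above background on all arrays and bars are list medians. Osmr (1.001), Lox (1.35) and Acta2 (1.29) lie farthest to the right, with Jak2 at 0.56.

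The other kinase and factors of the family gave signal above the lower cutoff on all 3 arrays. Tyk2, the further Janus kinase that binds gp130, read 6.41 ± 0.061 (SD, n = 3) and did not show the spread of Jak1 and Jak2 (adjusted p = 0.998 in limma's variance test); the difference in spread between the kinases was not tested. All 5 other measured STAT genes lay above the lower cutoff on all 3 arrays, against 71.4% of genes. The higher one was exceeded on all 3 arrays by 1 of them, Stat4 (6.71 ± 0.14), against 39.0% of genes. Stat2, a factor of interferon signalling, had the largest SD of the 5 (6.54 ± 0.21; SD, n = 3 for both). Jak3 and Pim2 were not analysed here.

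Inhibitors and the Ras-ERK and PI3K branches gave signal throughout. The inhibitor list held SOCS, PIAS and phosphatase genes other than Socs3 and Ptpn11, and the adaptor gene Sh2b3. All 16 of its genes lay above the lower cutoff on all 3 arrays, against 71.4% of genes. The higher one was exceeded by 11 of the 16, against 39.0% of genes. Among the 16, Socs1 read 6.11 ± 0.13, Socs2 8.53 ± 0.068 and Ptpn9, which had the largest SD, 6.22 ± 0.23 (SD, n = 3 for each). All 16 measured adaptor, Ras-ERK and PI3K genes were above the lower cutoff and 13 above the higher one, against 71.4% and 39.0% of genes. The adaptors Grb2 and Gab1 read 7.31 ± 0.12 and 10.12 ± 0.16 (SD, n = 3 for both). Shc1, an adaptor that couples receptors to Ras, had the largest SD of that list. It read 8.46, 9.02 and 8.55, high in repeat 2 as Jak2 was (unadjusted p = 0.00588, adjusted p = 0.432 in limma's variance test).

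Of 20 genes known as LIF or Stat3 targets, 17 lay above the lower cutoff and 15 above the higher one on all 3 arrays. Over all genes the shares were 71.4% and 39.0%. Klf4, a naive pluripotency factor induced by Stat3, read 9.33 ± 0.087, and Klf5, a related factor, 10.10 ± 0.024 (SD, n = 3 for both). Below the lower cutoff on at least 1 array were Pramel7 (4.43 ± 0.25), Pramel6 (4.66 ± 0.21) and Cebpd (4.31 ± 0.082; SD, n = 3 for each). In the list of 20, 9 genes were highest in repeat 2 and 7 lowest there, against 36.9% and 34.7% of genes above background. The median shift of the list was 0.0055 log2 units. The variance test called 0 of the 19 tested, and 5 had an unadjusted p under 0.05, against 5.75% of genes. The median SD was 0.14, beside 0.10 over all genes above background. Fos, an immediate early factor with the largest SD of the list, read 7.52, 7.16 and 7.93, with repeat 2 low (unadjusted p = 0.00269, adjusted p = 0.321 in limma's variance test).

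Other targets with an unadjusted p under 0.05 are named here after their values were seen. Ccnd1, cyclin D1, read 9.97, 9.45 and 10.15, low in repeat 2 (adjusted p = 0.16 in limma's variance test). Tfcp2l1, a Stat3 target that sustains self-renewal, read 9.06, 9.55 and 9.06, high in repeat 2 with repeats 1 and 3 nearly equal, the shape of Jak2 (adjusted p = 0.447). Myc, at 8.61, 9.01 and 8.46 (adjusted p = 0.50), and Bcl6, at 4.97, 5.49 and 4.78 (adjusted p = 0.552), were high in repeat 2 too. Of the 4 targets with the motif, Icam1, Zfp36 and Sgk1 were lowest in repeat 2, as were 34.7% of genes above background. Bcl6 was highest there, and Socs3, the gene of the chain with the motif, was lowest in repeat 3. None of these passed the variance test, and a link between the motif and the order of the repeats was not tested.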

How the data were processed

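Trizol-extracted total RNA of 3 biological repeats of R1 ES cells was labelled with biotin, per the labels' protocols. The deposited values are intensity per probe set, linear and never negative. GCOS 1.4 appears in the submitters' processing notes. How background, normalization and summary were done, and the genome build, is not given in the sources used here. Unknown steps may therefore set the size of a difference. Nothing further was normalized, and a floor of 1 before log2 changed 0 values.

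Names came from the supplied, possibly outdated platform annotation. Among 26730 probe sets, 20764 had 1 symbol, 1419 several and 4547 none listed. RefSeq identifiers (GRCm38.p6) matched 20678 of the first kind. A gene's value is the mean log2 of its probe sets. Levels of different genes were not compared, since their probes differ. Having 3 arrays limits the precision.

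In limma 3.58.1 (R 4.3.3), each gene's variance over the arrays was divided by the trended, robust prior variance and set against F with 2 and 9.87 degrees of freedom, for 13591 genes above background on at least 1 array. The threshold was a Benjamini-Hochberg adjusted p of 0.05, and the test was tried on simulated data.

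The genes and lists were chosen with earlier results of these data known. Genes named from a list are the first 2 measured, the one with the largest SD and a side of at most 5 in the background call; not all of these are printed, and Lox, Fn1, Pdgfra and some LIF or Stat3 targets were named after their values were seen. For the least even gene of the chain, the 3 nearest profiles are named. Alternatives were other cutoffs, 2 of 3 arrays sufficing, quantile normalization, median centring, the highest probe set, all genes, other priors and each repeat left out. Single probe sets and the lower Socs3 probe set were added after seeing the data.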

Additional observations from a re-analysis of the deposited data

How the results depend on the processing

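The background call held for all 9 genes under the alternatives run, except with other silent families (8, without Jak2). In that setting Socs3 passed as the mean of its probe sets, while its lower probe set did not. No gene of the chain passed limma's variance test under any of the alternatives run. Over all genes the test called 22. The count was 13 after quantile normalization, 39 after median centring, 10 without the robust prior, 1 without the trend, 41 for single probe sets (added after seeing the data) and 0 to 34 when 1 repeat was left out; the cause was not tested. The level of Socs3 was 8.50 with its highest probe set in place of 7.28. The other 53 of 54 recomputed levels moved by less than 1 SD. No paired analysis was possible because there is 1 group. With 3 arrays, differences of the size seen in Jak1 and Jak2 did not pass.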
